A study of Mus musculus with 12 samples.

Results

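Dendritic cells grown from mouse marrow in granulocyte-macrophage colony-stimulating factor (GM-CSF) were set against macrophages grown from the same marrow in macrophage colony-stimulating factor (M-CSF). This is 1 of 3 pairwise comparisons in a study of myeloid cells, and it rests on 8 of 12 libraries, with 4 per cell type. Its members are the 46072 Ensembl genes of the authors' table, all of which were kept, and the size of a difference is the ratio of the authors' mean in dendritic cells to their mean in macrophages. Of these genes 26076 had a p-value and 20730 had an adjusted p-value in the authors' deposited table. The last are the genes tested, and a gene is described as higher, lower or called where that adjusted p was under 0.05.

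Both cultures started from bone marrow of 6 to 8 week old C57BL/6J mice, using the cells that were still in suspension after 24 hours. For the cells labelled immature dendritic cells, 400000 of them were seeded per well of a 24-well plate with 20 ng/ml GM-CSF. For macrophages the suspended cells were first expanded for 5 days in 100 ng/ml M-CSF, detached, and seeded at 80000 per well with 30 ng/ml M-CSF. Both were kept in RPMI medium for 8 to 10 days, and wells were pooled for each RNA sample. Growth factor, expansion step and seeding density differ together between the groups and cannot be told apart. No sorting of cells is described in the labels, which say that each experiment drew all its cell types from one mouse, and that there were 4 such experiments.

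GM-CSF binds a receptor made of the chain Csf2ra and the signalling chain Csf2rb, whose bound kinase Jak2 activates the transcription factor Stat5. M-CSF binds the receptor tyrosine kinase Csf1r, which keeps macrophages alive and dividing. Marrow grown in GM-CSF is a standard source of cells that take up antigen and present it to T cells on major histocompatibility complex (MHC) class II molecules, and such cultures are known to hold several cell types.

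The authors' means, which are normalised read counts averaged over 4 libraries, sum to 27731759 for dendritic cells and 25022062 for macrophages. For genes whose mean was no higher than 1000, the whole reads of each library were recovered from the mean, because each library has its own size factor. Libraries are lettered a to d within a cell type, and a letter is not a replicate number and does not link a dendritic library to a macrophage library. Over 6390 genes recovered in both, Pearson correlations of log2 values ran from 0.907 to 0.951 within dendritic cells, from 0.935 to 0.977 within macrophages and from 0.460 to 0.554 between them. Macrophage library a stood furthest from the other libraries of its group, with 477 of these genes more than 1 log2 unit from the group median, followed by macrophage library c with 309; the others had 104 to 180. Reads of Y-linked genes were present in 1 of 4 libraries of each cell type.

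By the adjusted p of the authors' deposited table, 7608 of 20730 tested genes (36.7%) were called. Of these 4212 (20.3% of those tested) were higher in dendritic cells and 3396 (16.4%) were lower. At least 2-fold differences by the ratio of means, with the same adjusted p, were met by 2669 genes higher (12.9%) and 1554 lower (7.50%). The scaling between cell types decided which direction held more genes. With the summed means of both cell types made equal, which shifts every log2 ratio by 0.148, 3459 genes were higher and 4623 lower (42.8% of calls higher, against 55.4%), and with upper quartiles made equal 3835 were higher and 3965 lower (49.2%). The median log2 ratio of means over all genes tested was 0.066, with a mean of 0 replaced by what 3 reads over the group would give. The directions of the gene groups below held under both scalings except where stated. Every count of called members below is to be read beside the 20.3% higher and 16.4% lower among all tested genes.

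**Figure D1:**
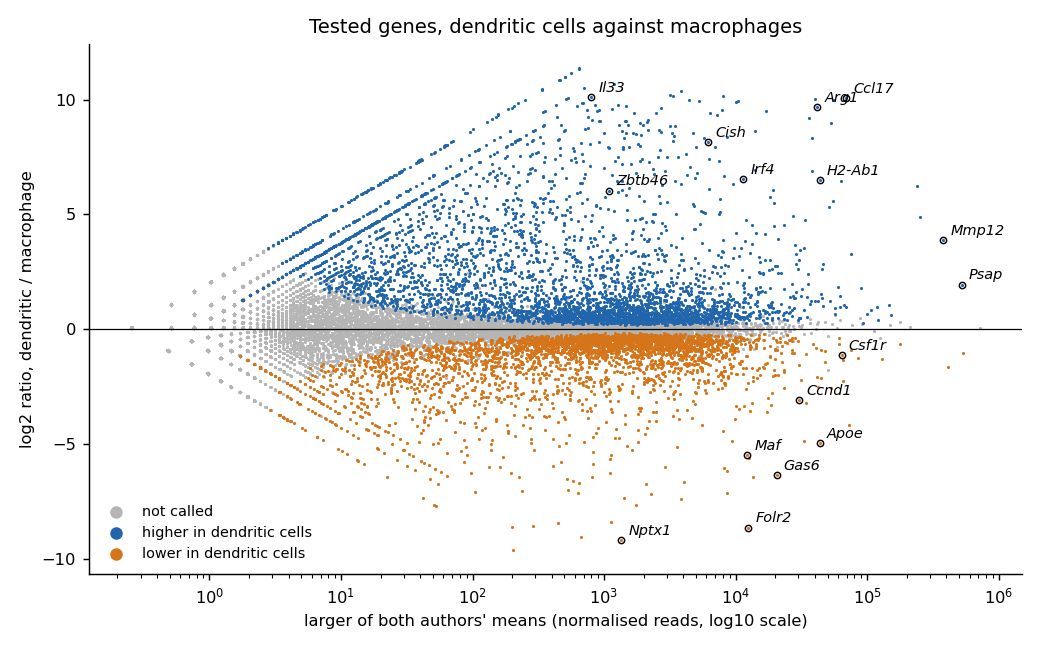
Log2 ratio of the authors' means, dendritic over macrophage (vertical), against the larger of both means on a log10 scale (horizontal), 1 point per tested gene; called genes are blue (higher in dendritic cells) or orange (lower), others grey, and a mean of 0 was replaced by the value of 3 reads over the group. Ccl17, Cish and Irf4 lie far above the line of no difference, and Folr2, Maf and Gas6 far below it.

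The marker genes of both labels followed them (gene coordinates are from GENCODE on GRCm38). Ccl17 (chr8:94810453-94812036), a chemokine of dendritic cells, reached 69229.6 normalised reads as the authors' dendritic mean against 64.9 as their macrophage mean, 1067-fold apart, and its macrophage libraries held 69.0, 63.3, 63.3 and 63.9 normalised reads. The difference had a log2 fold change of 10.02 and a p listed as 0 in the authors' deposited table. Zbtb46 (chr2:181387762-181459426), a transcription factor of classical dendritic cells, had means of 1099 and 16.7, a 65.6-fold difference (by the authors' deposited table, adjusted p = 3.19e-149 at a log2 fold change of 5.97 ± 0.23), with 23.01, 14.6, 11.7 and 17.7 reads in the macrophage libraries. The value after ± is the standard error that the authors' p-value implies for their fold change. On the macrophage side, Folr2 (chr7:101839988-101857194), a folate receptor of tissue macrophages, had 23.4, 34.6, 35.7 and 30.8 reads in the dendritic libraries against a macrophage mean of 12503, so it was 402-fold lower in dendritic cells (by the authors' deposited table, adjusted p = 8.07e-172 at a log2 fold change of −8.47 ± 0.30). Csf1r (chr18:61100598-61132149), the M-CSF receptor, was lower by far less: its means were 29251 and 63822, a 2.18-fold difference (by the authors' deposited table, adjusted p = 1.10e-08 at a log2 fold change of −1.12 ± 0.18). The dendritic cultures kept a high level of Csf1r transcript, 5066 normalised reads per kilobase of exon. In these bulk samples fewer cells of a type and less RNA per cell cannot be told apart.

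Class II presentation was far higher in the dendritic cultures. Of 18 tested members 15 were higher in dendritic cells and 1 lower, with a median log2 ratio of 4.52, against 20.3% and 16.4% of all tested genes. H2-Ab1, H2-Aa and H2-Eb1, the chains of the peptide-binding molecules, had dendritic means of 43679.7, 63256 and 38338, as given by the authors. Their macrophage means were 488, 709 and 322, so the ratios were 89.5, 89.2 and 119. Ciita, the coactivator that switches class II genes on, was 79.5-fold higher (by the authors' deposited table, adjusted p = 4.82e-21 at a log2 fold change of 5.81 ± 0.60), and Cd74, the invariant chain, 75.1-fold. The peptide-loading genes H2-DMa and H2-DMb2 were 26.9-fold and 88.5-fold higher and their modulators H2-Oa and H2-Ob 45.7-fold and 19.7-fold. H2-DMb1 differed less, at 9.28-fold. Of the factors that bind the class II promoter, Rfxank was 1.85-fold higher, while Rfx5 (means 507 and 472) and Rfxap (209 and 230.3) were not called. Ctss, the protease that trims the invariant chain, was 1.93-fold higher, and Lgmn, another lysosomal protease, 1.85-fold lower.

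Among the macrophage libraries class II genes were far from even. H2-Ab1 had 591, 142, 1097 and 121 reads in macrophage libraries a to d, H2-Aa 1020.0, 163, 1557 and 96.3, H2-Eb1 449.6, 88.6, 676 and 71.7 and Ciita 73.8, 14.6, 90.6 and 12.8. Libraries a and c held the higher values of all 4 genes and b and d the lower ones. Library c held the most reads of each: without it the ratio of H2-Ab1 was 153, that of H2-Aa 148 and that of H2-Eb1 189. The loading genes varied less, with 432, 428, 607 and 319 reads of H2-DMa and 802, 726, 953 and 663 of H2-DMb1. Rfx5 had 515, 418, 459.9 and 494 reads in those libraries and did not follow the pattern of Ciita.

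**Figure D2:**
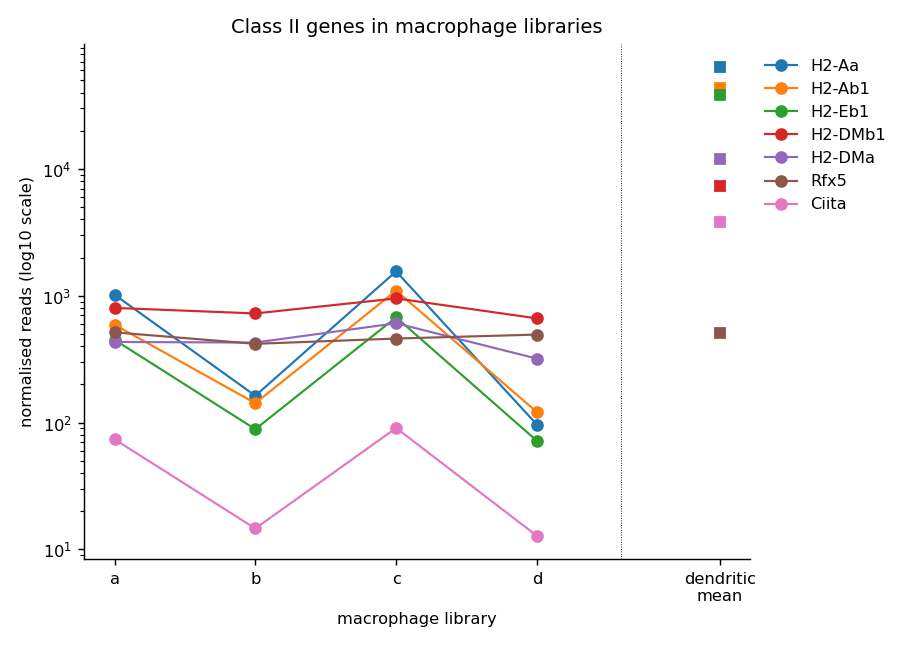
Normalised reads (vertical, log10 scale) of class II genes in macrophage libraries a to d (horizontal), 1 line per gene joining its recovered libraries, with the authors' dendritic mean as a square at the right. H2-Ab1, H2-Aa, H2-Eb1 and Ciita were higher in libraries a and c than in b and d, H2-DMa and H2-DMb1 varied less, and every dendritic mean shown except that of Rfx5 lay above every macrophage library of its gene.

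The class II promoters carry a conserved pair of elements, an X box bound by the RFX factors and a Y box bound by NF-Y, and the windows of H2-Aa and H2-Eb1 are shown because these genes differed so widely. Each window is from RefSeq on GRCm38.p6 and covers 250 bases before to 50 after the annotated start, chr17:34287774-34288073 on the minus strand for H2-Aa and chr17:34305617-34305916 on the plus strand for H2-Eb1. Capitals mark the letters GCAAC and ATTGG (the core of a Y box) lying 20 to 30 bases apart on one strand, a pair written down after these windows had been read.
H2-Aa: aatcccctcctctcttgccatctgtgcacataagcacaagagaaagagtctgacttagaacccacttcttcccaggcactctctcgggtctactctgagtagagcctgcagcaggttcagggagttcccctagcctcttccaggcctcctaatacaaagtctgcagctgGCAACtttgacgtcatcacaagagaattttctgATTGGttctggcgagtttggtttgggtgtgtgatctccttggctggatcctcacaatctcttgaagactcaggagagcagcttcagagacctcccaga
H2-Eb1: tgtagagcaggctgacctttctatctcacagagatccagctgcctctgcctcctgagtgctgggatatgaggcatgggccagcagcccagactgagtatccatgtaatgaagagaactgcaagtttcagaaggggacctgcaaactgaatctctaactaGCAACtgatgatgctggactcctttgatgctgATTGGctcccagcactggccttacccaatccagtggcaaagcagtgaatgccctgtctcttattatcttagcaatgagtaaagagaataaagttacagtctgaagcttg
The gap is 28 bases in H2-Aa and 27 in H2-Eb1. Searched on both strands, this pair was held by 5 of 13 class II list genes with a promoter entry (H2-Aa, H2-Eb1, H2-Eb2, H2-Oa and H2-Ob) and by 0.6% of all 32851 promoters, and the letters ATTGG alone by 37.4%. H2-Aa and H2-Eb1 match by design, because the pair was written down after their windows had been read. Among promoters of genes higher in dendritic cells 0.572% held the pair, of genes lower 0.462%, and of tested genes that were not called 0.562%. These are letter matches, not sites shown to be bound.

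Class I presentation, which shows peptides from inside the cell, differed less. Of 23 tested members 12 were higher and 0 lower (median log2 ratio 0.42), and 2 were lower with the summed means made equal. The classical genes H2-K1 and H2-D1 were not called, with means of 23770.0 against 20144 and 33358 against 37191. The non-classical H2-M2 was 69.8-fold higher, and the immunoproteasome subunits Psmb8 and Psmb9 were 1.98-fold and 1.76-fold higher. The peptide transporters Tap1 and Tap2 were 1.98-fold and 1.94-fold higher.

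Genes that define dendritic cells were mostly higher. Of 28 tested members 24 were higher and 2 lower (median log2 ratio 5.08). Irf4, a transcription factor of the CD11b-type dendritic cell, had means of 11403 and 123, a 92.6-fold difference (by the authors' deposited table, adjusted p = 1.03e-84 at a log2 fold change of 6.39 ± 0.32). Irf8, which directs the cross-presenting type, went the other way, with 1763 against 3156, 1.79-fold lower. Batf3, the partner of Irf8 in that type, had 789, 319, 413 and 542 reads in the dendritic libraries and 6.71, 14.6, 6.82 and 11.8 in the macrophage libraries, a 51.6-fold difference with no overlap. Surface genes of the cross-presenting type were uneven. Clec9a, which recognises dead cells, had 211, 555, 423 and 426 reads against 4.79, 1.95, 3.90 and 7.86. Xcr1, its chemokine receptor, had 34.6, 21.4, 22.5 and 14.4 against 9.59, 5.84, 7.80 and 19.7 and was not called. Flt3, the receptor that conventional dendritic cells need, was called from few reads, 15.3, 9.16, 6.12 and 24.6 against 0, 0, 0.974 and 0.983. The integrin chain Itgax (CD11c) was 40.4-fold higher, and the lectin Cd209a had 90.6, 128, 91.9 and 201 reads against 4.79, 0.974, 0 and 0.

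Several identity genes differed widely among the dendritic libraries themselves. Itgae (CD103) had 68.2, 325, 75.5 and 674 reads in dendritic libraries a to d against 2.88, 10.7, 5.85 and 4.91 in macrophages, and without library d its ratio went from 46.9 to 25.6. Btla, an inhibitory receptor, had 38.7, 389.8, 48.0 and 284 against 0.959, 0.974, 1.95 and 3.93, and its ratio of 97.4 became 63.3 without dendritic library b and 147 without macrophage library d. Dpp4 (CD26) had 343, 762, 402 and 1228. For all of these, libraries b and d held more reads than a and c. Spib, a transcription factor, had 355, 602, 476 and 921 reads, and Kit, the stem cell factor receptor, 56.0, 187, 159 and 261. Kit is not on the identity list but on those of growth factor receptors and of mast cells. Of 14 tested mast cell and basophil genes 11 were higher, and reads of the 18 recovered genes of that list summed to 851 to 1419 in dendritic and 22.4 to 47.0 in macrophage libraries. Every dendritic library of Itgae, Btla, Dpp4, Spib and Kit lay above every macrophage library, as was the case for 16.9% of the 15096 tested genes recovered in both cell types.

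**Figure D3:**
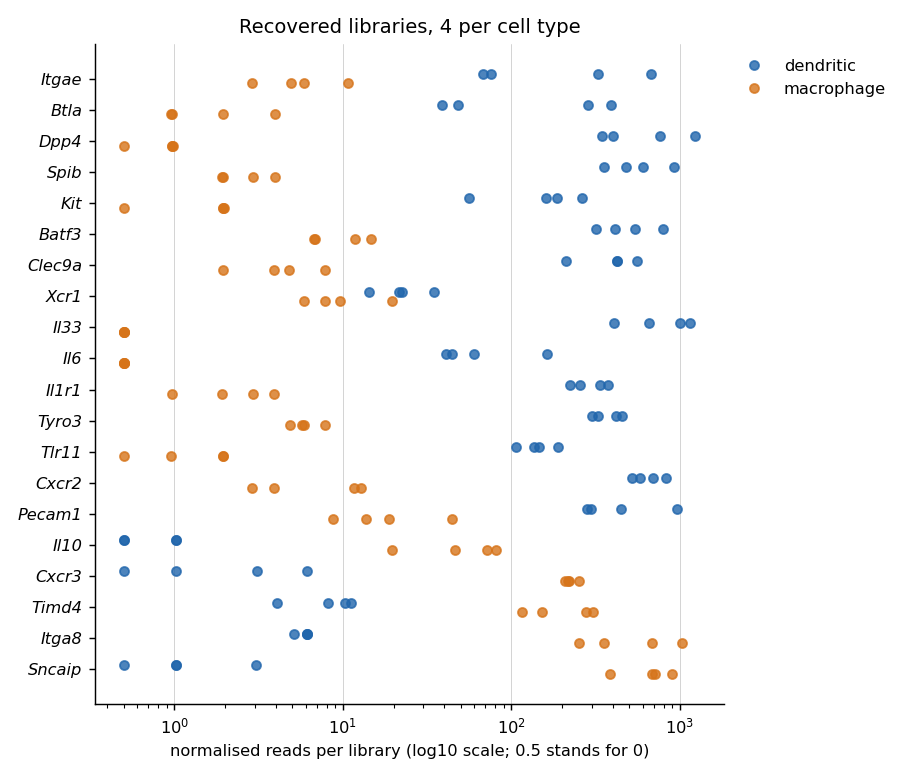
Normalised reads per library (horizontal, log10 scale, values under 0.5 drawn at 0.5 and standing for 0) of genes recovered in both cell types, 1 row per gene, with 4 blue points for dendritic and 4 orange points for macrophage libraries. The groups do not overlap for any gene shown except Xcr1, and the dendritic points of Itgae and Btla form a low and a high pair. Of all 15096 tested genes recovered in both cell types, 2547 had every dendritic library above every macrophage library. The reverse held for 1661.

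Genes that rise when dendritic cells mature and migrate were also higher, in cultures labelled immature. Of 22 tested members 17 were higher and 2 lower (median log2 ratio 2.23). Ccr7, the receptor that guides migration to lymph nodes, had a dendritic mean of 1186 and 3 reads over the macrophage libraries together, a ratio of 1627 with a 95% exact interval from 556 to 7890 that covers counting error only. Fscn1, the actin-bundling protein of mature cells, was 290.0-fold higher and the calcium channel subunit Cacnb3 30.2-fold. Cd83 and Cd40, both maturation markers, were not called, with 1428 against 1563 and 174 against 403. Il15 was 2.45-fold lower. Of 21 costimulatory and inhibitory ligands 11 were higher and 4 lower. Cd80 and Cd86, the ligands of CD28, were 3.29-fold and 3.98-fold higher, and Cd86 was 6.32-fold without macrophage library a, which held 851 reads against 231, 309.9 and 222 in the others. Both ligands of PD-1 were higher, Cd274 (PD-L1) 14.5-fold and Pdcd1lg2 (PD-L2) 683-fold. Lower were Vsir (VISTA), 1.67-fold, and Havcr2 (TIM-3), 6.00-fold. Tnfsf9 (means of 196 against 539) and Cd48 (2320 against 3752) were lower as well.

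The receptors for both growth factors differed in opposite directions. Of 12 tested members of that list 7 were higher and 2 lower (median log2 ratio 1.61). Csf2ra was 2.02-fold higher in dendritic cells, while Csf2rb reached 75482 against 7712, 9.79-fold (by the authors' deposited table, adjusted p = 1.12e-26 at a log2 fold change of 3.23 ± 0.29). Csf2rb2, which encodes the closely related interleukin-3 receptor chain, was 3.32-fold higher, and reads shared between these near-identical genes may have been split by the counting. The transcript of M-CSF itself, Csf1, was 40.7-fold higher in the dendritic cultures, with 136, 93.5, 133 and 109 reads in the macrophage libraries. Csf2, which encodes GM-CSF, had 1.02, 1.02, 0 and 0 reads in the dendritic libraries and none in macrophages. Csf3r, the granulocyte colony-stimulating factor receptor, was 2.66-fold lower.

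Below the receptor, Jak2 was 10.1-fold higher, with means of 12829 and 1274 (by the authors' deposited table, adjusted p = 7.11e-58 at a log2 fold change of 3.30 ± 0.20), whereas Jak1 and Jak3 were not called (7918 against 7773, and 541 against 505). Stat5a was 2.59-fold higher and Stat5b was not called (1451 against 1399). Feedback inhibitors that Stat5 is known to induce stood far apart. Cish had a mean of 6202 in dendritic cells and 29.7, 18.5, 22.4 and 16.7 reads in the macrophage libraries, 284-fold (by the authors' deposited table, adjusted p = 2.70e-293 at a log2 fold change of 8.08 ± 0.22). Socs2 was 344-fold higher, Socs1 45.6-fold and Socs3 18.3-fold. The survival kinase Pim1 was 11.8-fold higher, but Bcl2l1, another gene that Stat5 is known to induce, was 1.80-fold lower. Socs5 was 2.53-fold lower, and Socs4 and Socs7 were not called. In the whole list of 24 tested genes 12 were higher and 3 lower.

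The Cish window (chr9:107296409-107296708, plus strand, GRCm38.p6) is shown because it is the member of this list with the letters TTCNNNGAA, a palindrome that Stat5 can bind, in more than 1 place. Capitals mark 2 such matches at its annotated start.
Cish: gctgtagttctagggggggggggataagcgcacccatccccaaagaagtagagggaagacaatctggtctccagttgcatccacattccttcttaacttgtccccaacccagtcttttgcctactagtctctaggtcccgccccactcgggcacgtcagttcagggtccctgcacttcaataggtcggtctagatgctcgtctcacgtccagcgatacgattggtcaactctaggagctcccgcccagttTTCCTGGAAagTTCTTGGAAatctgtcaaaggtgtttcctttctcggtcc
At least 2 matches were held by 0.457% of all promoters and at least 1 by 8.3%. Of the 17 genes of the list with a promoter entry, 2 held at least 1, Cish and Socs3. Among promoters of genes higher in dendritic cells 7.23% held at least 1 match, of genes lower 5.75%, and of tested genes that were not called 7.7%.

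On the macrophage side, transcription factors moved in both directions. Of 25 tested members 11 were higher in dendritic cells and 5 lower (median log2 ratio 0.17). Maf, which restrains macrophage division and drives their mature programme, had 279.8, 273, 237 and 290.3 reads in the dendritic libraries against a macrophage mean of 12236, 45.3-fold lower (by the authors' deposited table, adjusted p = 5.97e-59 at a log2 fold change of −5.37 ± 0.33). Zeb2, a repressor that macrophages need, was 1.69-fold lower. Spi1 (PU.1), the master factor of both lineages, was not called (6764 against 6029.7), and neither were Mitf and Cebpa, of which Cebpa was lower with the summed means made equal (adjusted p = 0.035). Egr2 was 34.2-fold higher, Bhlhe40 15.5-fold and Irf5 2.23-fold.

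Surface genes of macrophages were lower more often than higher: of 26 tested members 12 were lower and 5 higher (median log2 ratio −0.89). Adgre1 (F4/80) was 5.82-fold lower, the haemoglobin scavenger receptor Cd163 5.56-fold, the fractalkine receptor Cx3cr1 17.9-fold and Timd4 25.1-fold. Timd4, which binds phosphatidylserine, had 11.2, 8.14, 4.08 and 10.3 reads in dendritic and 152, 115, 303 and 276 in macrophage libraries. Mrc1, the mannose receptor, and Fcgr1 (CD64), both often used to mark macrophages, were not called (12216 against 20747, and 2944 against 1812). Tmem119 and Pecam1 were higher in dendritic cells, with 219, 203, 868 and 461 against 1.92, 11.7, 7.80 and 21.6 reads and 296, 279.9, 961 and 444 against 44.1, 13.6, 8.77 and 18.7.

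The machinery for taking up dying cells was the group most often lower: 13 of 21 tested members were lower and 6 higher (median log2 ratio −1.84). Its receptors of the TAM family split. Mertk was 1.55-fold lower, Axl 8.05-fold higher and Tyro3 61.6-fold higher, with 455, 328, 415 and 299 reads of Tyro3 in the dendritic and 5.75, 7.79, 4.87 and 5.90 in the macrophage libraries. Their ligand Gas6 had 328, 251, 189.9 and 221 reads in the dendritic libraries against a macrophage mean of 20491, 82.8-fold lower (by the authors' deposited table, adjusted p = 9.47e-102 at a log2 fold change of −6.25 ± 0.29), and the other ligand, Pros1, was not called (2005 against 2669, though lower with the summed means made equal, adjusted p = 0.0092). The bridging protein Mfge8 was 5.64-fold higher, while its integrin receptor chains Itgav and Itgb5 were 5.04-fold and 5.12-fold lower. The scavenger receptor Stab1 was 29.7-fold lower.

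Complement genes moved both ways. The C1q chains C1qa, C1qb and C1qc were 6.78-fold, 5.85-fold and 9.34-fold lower, and the receptors C5ar1 and C3ar1 9.80-fold and 4.69-fold lower. Factor B (Cfb) of the alternative pathway was 161-fold higher and C3 5.34-fold. The receptor integrins Itgam and Itgb2 (CD11b and CD18) were 1.94-fold and 2.05-fold higher. In all 7 of 22 tested complement genes were higher and 10 lower.

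Of 26 tested chemokine ligands 13 were higher and 1 lower in dendritic cells (median log2 ratio 1.48). The Ccr4 ligands led: Ccl17, given above, and Ccl22, with a mean of 52708 against 85.3, 55.5, 205 and 68.8 macrophage reads, 509-fold. Per kilobase of exon, Ccl6 and Ccl17 had the highest dendritic levels of the list, 141466 and 134688 normalised reads. Ccl6 and Ccl9, which attract myeloid cells, were 30.0-fold and 3.45-fold higher. Cxcl3, a neutrophil attractant, was 459-fold higher and Ccl5 had 710.2, 604, 911 and 760.0 reads against 23.01, 7.79, 7.80 and 19.7. The lone chemokine ligand called lower was Cxcl14, 7.75-fold. Ccl2 and Ccl7, which attract monocytes, and the interferon-induced Cxcl10 were not called (6173 against 2944, 641 against 1145, and 92.8 against 138).

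The Ccl17 window (chr8:94810203-94810502, plus strand, GRCm38.p6) is shown as that of a chemokine marker of the dendritic cultures, with its 1 match to TTCNNNGAA in capitals.
Ccl17: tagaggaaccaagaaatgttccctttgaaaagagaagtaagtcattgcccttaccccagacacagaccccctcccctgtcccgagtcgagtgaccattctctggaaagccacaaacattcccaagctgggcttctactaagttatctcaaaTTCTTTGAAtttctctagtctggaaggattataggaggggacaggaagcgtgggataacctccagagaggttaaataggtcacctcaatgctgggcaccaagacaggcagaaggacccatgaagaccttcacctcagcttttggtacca
Of the 20 chemokine ligand genes with a promoter entry 2 held such a match, near the 8.3% of all promoters given above.

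Chemokine receptors were higher in 11 of 19 tested cases and lower in 4. Ccr2, which brings monocytes out of marrow, was 66.4-fold higher with 270.3, 269.8, 208 and 417 reads in the macrophage libraries, and Ccr1 18.0-fold. Cxcr2 had 576, 520.1, 829.9 and 695 reads in dendritic and 2.88, 3.90, 11.7 and 12.8 in macrophage libraries. Cxcr3 ran the other way, with 1.02, 6.11, 0 and 3.08 against 220.5, 250.3, 216 and 208 and no overlap, and Cxcr4 was 2.85-fold lower. Every macrophage library lay above every dendritic library for 1661 of the 15096 tested genes recovered in both cell types.

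Of the interleukins and their receptors 21 of 32 tested genes were higher and 5 lower (median log2 ratio 1.38). In the interleukin-1 family the agonists Il33, Il1a and Il1b and the inhibitors Il1rn and Il1r2 were higher. Il18 and Il18bp were not called (means of 175 against 194, and 366 against 297). Il33, an alarmin, had 656, 1150.2, 993 and 403 reads in the dendritic libraries and 0 in every macrophage library, at least 1098-fold higher against the 3 reads over the group that a count of 0 allows. Il1a was 322-fold higher, and Il1b 34.7-fold, or 138-fold without macrophage library a, which held 524 reads against 17.5, 78.9 and 25.6. Their brakes were higher as well, the antagonist Il1rn 30.6-fold and the decoy receptor Il1r2 469-fold, as was the signalling receptor Il1r1, with 223, 373, 337 and 255 against 1.92, 0.974, 3.90 and 2.95 reads. Il6, an inflammatory cytokine, had 60.0, 40.7, 162 and 44.1 reads in dendritic libraries and 0 in macrophage libraries, at least 105-fold higher, and its dendritic mean of 76.8 was 48.3 without library c. Il10, an inhibitory cytokine, was lower, with 2 reads over the dendritic libraries and 46.0, 80.8, 19.5 and 71.7 normalised reads in the macrophage libraries, a macrophage to dendritic ratio of 107 with a 95% exact interval from 29.2 to 887. Il12b, a subunit of interleukins 12 and 23, had 32.6, 52.9, 24.5 and 63.6 against 0, 0.974, 0 and 2.95. Il2ra (CD25) was 383-fold higher.

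Inflammasome and NF-kappa-B genes were higher in 12 of 19 tested cases and lower in 4, among them Tnf (2.24-fold higher), Nlrp3 (1.61-fold) and Casp1 (2.09-fold lower). Of 35 tested interferon-stimulated genes 11 were lower, 6 higher and 18 not called (median log2 ratio −0.36). Among all tested genes 16.4% were lower and 20.3% higher. Ifit2, Ifit3 and Oas2 were 2.86-fold, 5.12-fold and 4.59-fold lower, while Gbp2 and Mx1 were 14.6-fold and 7.13-fold higher, and Isg15 was not called (336 against 334). Irf7, which amplifies the interferon response, was 1.92-fold lower. Among the interferon regulatory factors 4 of 9 were higher and 2 lower, the latter becoming 4 with the summed means made equal.

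Toll-like receptors showed no common direction: 7 of 21 tested receptors and adaptors were higher and 8 lower. The RNA sensors Tlr7, Tlr8 and Tlr13 were 3.15-fold, 2.80-fold and 2.88-fold lower, and Tlr3 2.60-fold. Tlr2 and Tlr4, which sense bacterial envelopes, were 1.74-fold and 1.41-fold higher. Tlr4 lost its call with the summed means made equal (adjusted p = 0.16) and with upper quartiles made equal (0.075). Tlr1 (means of 227 against 1046) and Tlr5 (16.9 against 70.5) were lower, and Tlr6 was not called (442 against 452). Tlr11, a sensor of profilin and flagellin, had 136, 188, 145 and 107 reads in dendritic and 0.959, 1.95, 1.95 and 0 in macrophage libraries. Tlr9, the DNA sensor, was not called (396 against 292).

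C-type lectins were higher in 19 of 29 tested cases and lower in 4 (median log2 ratio 3.54). Mgl2, which binds galactose-type sugars, was 598-fold higher, Clec4n (Dectin-2) 48.6-fold and Clec7a (Dectin-1) 11.6-fold, and Olr1 (LOX-1) had a mean of 7197 against 10.5, 7.79, 11.7 and 14.7 macrophage reads. Clec4d, Clec12a and Colec12 were 4.12-fold, 3.46-fold and 4.17-fold lower. Among 12 tested Fc receptor genes 4 were higher and 3 lower. The inhibitory Fcgr2b was 6.08-fold higher, and the activating Fcgr3 less, 1.78-fold. In the MS4A cluster on chromosome 19 neighbours moved apart, with 3 of 12 higher and 5 lower. Ms4a7 had 159, 158, 129.6 and 172 dendritic reads against a macrophage mean of 13482, 87.2-fold lower. Ms4a8a had 829, 303, 367 and 412 against 5.75, 0.974, 0.974 and 6.88, 131-fold higher.

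Genes linked to alternative activation by interleukins 4 and 13 were nearly all higher, 19 of 22 tested, with 1 lower (median log2 ratio 6.35). Arg1 (arginase) had means of 41909 and 51.6, 812-fold apart, with 39.3, 50.6, 46.8 and 69.8 reads in the macrophage libraries. Chil3 (Ym1) was 1007-fold higher, Retnla (Fizz1) 875-fold, and Alox15 had 451, 463, 266 and 525 against 0, 8.76, 1.95 and 4.91 reads. Mrc1, also on this list, was not called, and Stat6, which transmits both signals, was 1.28-fold lower. The receptor chains Il4ra and Il13ra1 were 1.69-fold and 10.8-fold higher. Ear1, Ear2, Ear6 and Ear10 of this list are also eosinophil genes. Ear2 had means of 10435 and 10.4 and Ear6 of 1291 and 2.68, whereas Ear10 was not called (1.78 against 0). Ear2 and Ear6 were not recovered in the dendritic libraries and are outside the sums: reads of 5 recovered eosinophil genes summed to between 439 and 1353 in dendritic and between 102 and 189.7 in macrophage libraries.

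Retinoic acid genes were higher in 10 of 17 tested cases and lower in 2. Aldh1a2, the enzyme that makes retinoic acid, had a mean of 3352 in dendritic cells and 2.88, 2.92, 1.95 and 3.93 reads in the macrophage libraries, 1148-fold (by the authors' deposited table, adjusted p = 5.86e-100 at a log2 fold change of 9.77 ± 0.45). Cyp26b1, which degrades it, had 77.3, 236, 384 and 188 against 4.79, 0.974, 0.974 and 0.983. The receptors Rara and Rarb were 3.95-fold and 23.4-fold higher, Rarb by 43.2-fold without macrophage library c, and Rdh10, which makes the precursor retinal, was 5.01-fold lower. A linear model (limma) of the log2 recovered reads called 8 genes of this list higher, and 5 without any one of dendritic library d, macrophage library a and macrophage library c. Of the eicosanoid genes 7 of 13 were higher and 1 lower, the latter being Hpgds, which makes prostaglandin D2, with 130.2, 168, 68.4 and 114 dendritic reads against a macrophage mean of 8583, 71.5-fold.

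Lipid genes separated by pathway. Cholesterol synthesis was higher at almost every step, 22 of 25 tested genes with 1 lower (median log2 ratio 1.13). Mvd, an enzyme of the mevalonate branch, was 9.16-fold higher and Sqle, which makes squalene epoxide, 3.29-fold. Fdft1, the step that commits to sterols, was 4.22-fold lower. Of cholesterol efflux genes and targets of the liver X receptor, 8 of 17 were lower and 2 higher. Abca1, which exports cholesterol, was 3.15-fold lower, Mylip 4.69-fold and Apoe 31.2-fold, with means of 1404 and 43819.7, whereas the exporter Abcg1 was 2.14-fold higher. Lipa, the lysosomal lipase, had means of 14555 and 50033 and a log2 ratio of means of −1.78, whereas the authors' deposited table gives a log2 fold change of −0.47 ± 0.95 (adjusted p = 0.768). Of PPAR gamma and lipid storage genes 13 of 20 were higher and 3 lower. Mgll, which breaks down monoacylglycerol, was 249-fold higher, and Plin2, the coat protein of lipid droplets, 2.92-fold lower. Scd2, which desaturates fatty acids, was 22.7-fold higher.

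Glycolysis was higher in 21 of 27 tested genes and lower in 2 (median log2 ratio 1.42). The glucose carrier Slc2a1 was 5.96-fold higher, the lactate exporter Slc16a3 4.94-fold, Gapdh 2.94-fold and Ldha 2.57-fold. Isoforms of one step differed in direction: of the phosphofructokinases Pfkp and Pfkl were 6.20-fold and 3.59-fold higher and Pfkm 1.66-fold lower, and of the enolases Eno1 was 3.36-fold higher and Eno2 1.99-fold lower. Hif1a, the factor that induces glycolysis in low oxygen, was 2.92-fold higher. Nuclear genes of oxidative phosphorylation were higher by smaller amounts, 52 of 76 with 1 lower and a median log2 ratio of 0.52. With the summed means made equal the count of higher genes was 37. The one lower gene was Ndufa4, with 1057, 810.2, 598 and 879 dendritic reads against a macrophage mean of 1990.2. In the citric acid cycle 15 of 25 were higher and 1 lower.

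Lysosomal genes were lower in 20 of 38 tested cases and higher in 7 (median log2 ratio −0.47). The proteases Ctsb, Ctsd and Ctsl were 3.09-fold, 2.05-fold and 1.88-fold lower, while Ctsh, Ctsc and Ctsz were 3.52-fold, 2.59-fold and 2.04-fold higher. Psap, the precursor of the saposins, was 3.82-fold higher, with a dendritic mean of 522586. Ctse was not called: its macrophage libraries held 5.75, 645, 2.92 and 586 reads, low in a and c and high in b and d. Of 19 iron genes 7 were lower and 3 higher. The iron exporter Slc40a1 had 342, 359, 256 and 329 dendritic reads against a macrophage mean of 9318, 29.0-fold lower, and Hmox1, which breaks down haem, was 1.90-fold lower. Genes of the phagocyte oxidase were higher in 6 of 8 tested cases with 0 lower, Cybb by 1.95-fold.

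**Figure D4:**
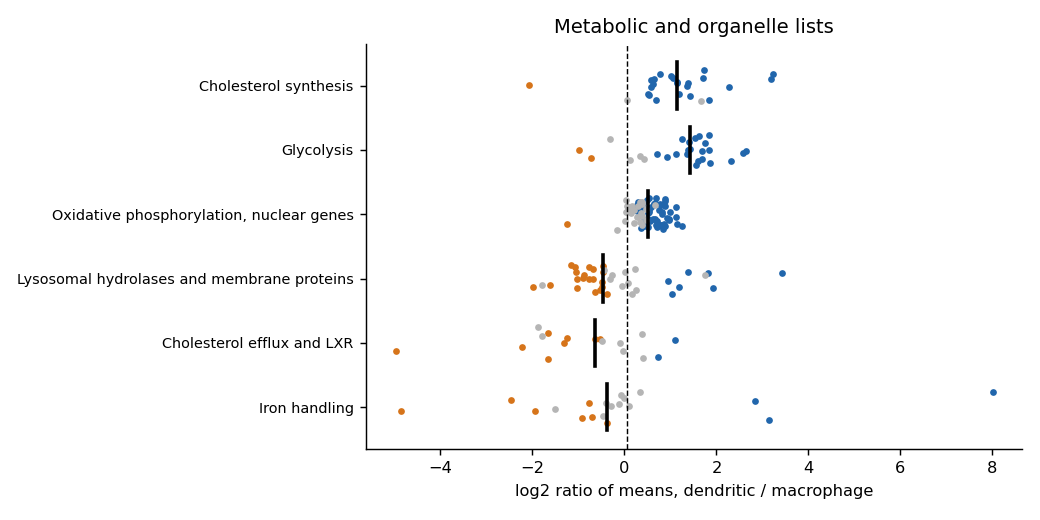
Log2 ratio of the authors' means, dendritic over macrophage (horizontal), with 1 point per tested member of 6 metabolic and organelle lists (rows), blue where called higher, orange where called lower and grey otherwise; black ticks are list medians and the dashed line is the median of all genes tested. Cholesterol synthesis, glycolysis and oxidative phosphorylation lie mostly to the right of the dashed line, and lysosomal, efflux and iron genes mostly to the left.

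Matrix proteases and their inhibitors were higher in 16 of 21 tested cases and lower in 3 (median log2 ratio 3.55). Mmp12, the macrophage elastase, had means of 379558 and 25921, 14.6-fold apart, and Mmp14, bound to the membrane, was 32.0-fold higher. Timp1 was 72.0-fold higher, but Timp2 3.88-fold lower. Integrins went both ways, 10 of 24 higher and 7 lower. Itga1, a collagen receptor chain, was 161-fold higher with 1.92, 6.82, 21.4 and 16.7 macrophage reads. Itga6, a laminin receptor chain, was 15.2-fold lower, and Itga8 had 6.10, 6.11, 6.12 and 5.13 reads in dendritic and 253, 681, 352 and 1032 in macrophage libraries. Of recovered integrin genes 5 were higher in the limma fit, and 2 without macrophage library a or dendritic library d.

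Few cell division genes were called: of 37 tested members 2 were higher and 3 lower (median log2 ratio −0.10). Both D-type cyclins below, which drive entry into the cycle, were called in opposite directions. Ccnd1 had means of 3541 and 30509, 8.61-fold lower, and Ccnd2 12616 and 2604, 4.84-fold higher. The mitotic genes varied within macrophages, with Ccnb1 at 285, 1337, 769 and 1455 reads and Plk1 at 187, 1173, 610.0 and 970.0 in libraries a to d, low in a, against 1064, 1004, 685 and 832 and 958, 604, 484 and 674 in dendritic cells. The limma fit of recovered reads called 0 members of this list lower with all libraries and 2 without macrophage library a.

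**Figure D5:**
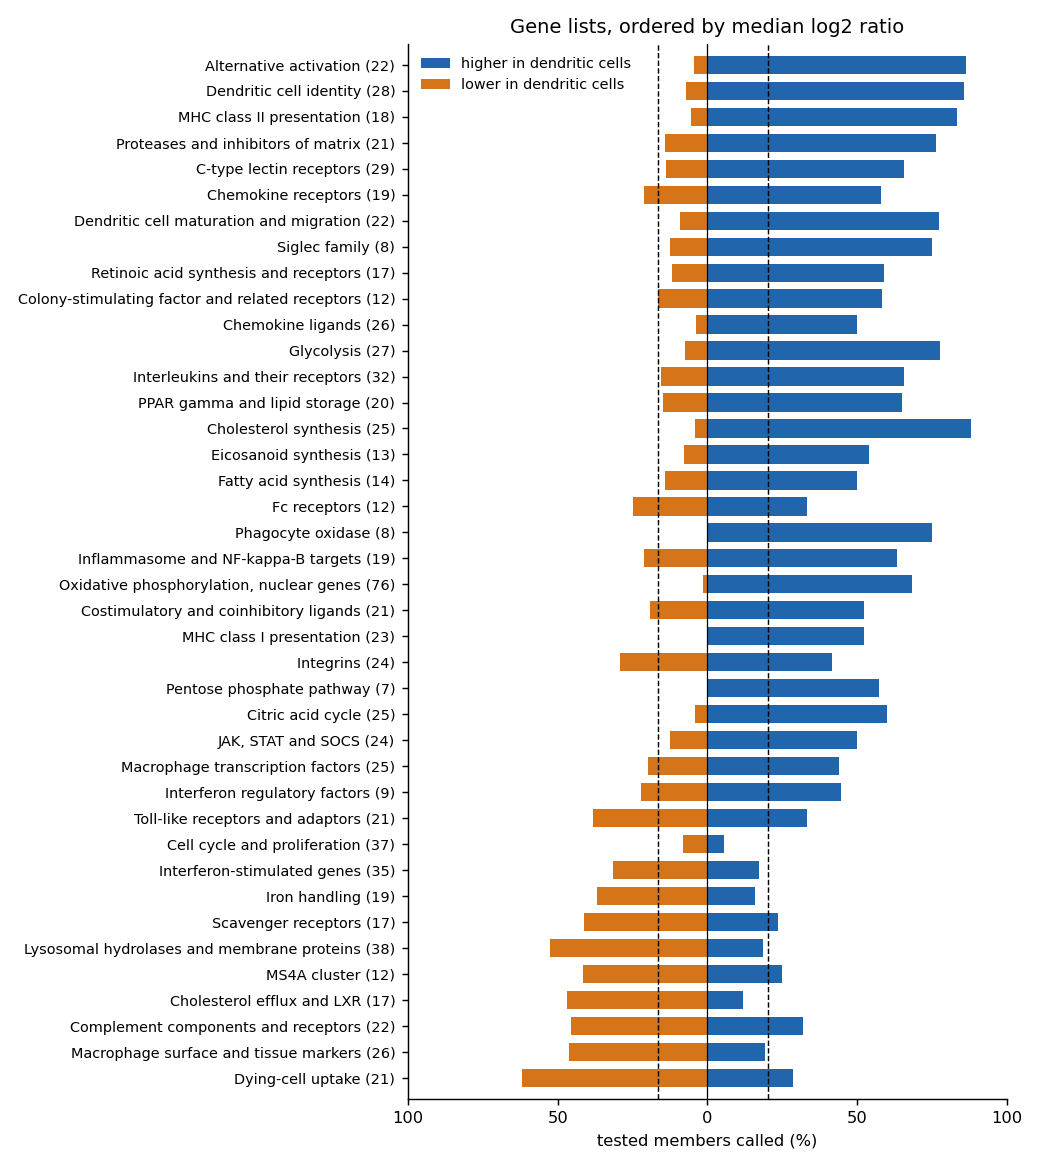
Share of the tested members of 40 gene lists (rows, with the number tested) that was called higher (blue, to the right) or lower (orange, to the left) in dendritic cells, in percent (horizontal), ordered by the median log2 ratio; dashed lines mark the shares of all tested genes, 20.3% higher and 16.4% lower. Alternative activation, dendritic cell identity and class II presentation stand at the top and dying-cell uptake at the bottom.

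Among called genes with at least 10 CPM (reads scaled to the summed means) in the higher cell type, the 15 with the largest ratios in favour of dendritic cells were Ear1, Fndc5, Fst, Ffar2, Gbp2b, Stc2, Edn1, Ccr7, Adam23, Lipg, Fgf23, Ccn3, Rnase2a, Aldh1a2 and Car4. In this ranking a mean of 0 was replaced by 3 reads over the group while 1 or 2 reads were kept as they were, so a gene at 0 such as Il33 (801 against 0) ranked below genes with a lower dendritic mean and 1 macrophage read. Many rested on 1 to 3 reads in macrophages. Ear1, an eosinophil-type ribonuclease, had 716, 988, 311 and 584 dendritic reads and 1 macrophage read, a ratio of 2668 with a 95% exact interval from 479.6 up. Fst (follistatin) had 311, 626, 913 and 389 and 1 read, with an interval from 413 up. Edn1 (endothelin 1) had 292, 632, 601 and 280.0 and 1 read, with an interval from 333 up. Car4, a carbonic anhydrase, had a mean of 8008 against 5.75, 7.79, 6.82 and 7.86 macrophage reads. Dendritic library d held most reads of Fndc5, Gbp2b and Adam23: without it their dendritic means went from 643, 502 and 702 to 372, 268 and 451.

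The 15 largest ratios in favour of macrophages were those of Nptx1, Sncaip, Folr2, Plekhh2, Adra1a, Itga9, Cd207, Hmga2, Ms4a14, Cacna1a, Cadm1, Lama3, Adcy2, Col18a1 and Cnrip1. Nptx1, a neuronal pentraxin, had 2.03, 6.11, 1.02 and 0 dendritic reads against a macrophage mean of 1348, 589-fold lower, or 1324-fold without dendritic library b. Hmga2, a chromatin protein of growing cells, had 12.2, 31.6, 22.5 and 24.6 against 3833. Cd207 (langerin), a lectin of Langerhans cells, was lower in the dendritic cells, with 10.2, 12.2, 5.10 and 7.18 reads against a macrophage mean of 1744. Itga9, an integrin chain, had 3.05, 2.04, 4.08 and 4.10 against 1124, and Cadm1, an adhesion molecule, 56.0, 84.5, 45.9 and 58.5 against 8611.

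For 38 genes a mean above 0 stood without a p-value in the authors' deposited table, so they belong to none of the counts above, and the following were chosen from them after their values were seen. Thbs1 (thrombospondin 1) had means of 41868 and 535, and its macrophage libraries held 1644, 157, 133 and 205 reads, with a mean of 165 without library a. Nos2, the inducible nitric oxide synthase, had 1530.4 in dendritic cells and 1.92, 2.92, 2.92 and 3.93 macrophage reads. Hpgd, which breaks down prostaglandins, had 3.05, 6.11, 6.12 and 21.5 dendritic reads against a macrophage mean of 2068. Bmp2, a bone morphogenetic protein, had 11.2, 4.07, 0 and 5.13 against 362, 31.2, 35.1 and 50.1, and its macrophage mean of 119.7 was 38.8 without library a.

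Markers of other marrow cells were higher in the dendritic cultures. Of 20 tested neutrophil genes 18 were higher and 0 lower, and the summed reads of the 14 recovered ones ran from 1433 to 3501 in the dendritic and from 69.2 to 782 in the macrophage libraries. Ly6g, the marker of neutrophils, had 271, 81.4, 271 and 162 dendritic reads and 0 in every macrophage library, while Mpo of their precursors was near 0 in both (3.05, 4.07, 1.02 and 4.10 against 0.959, 10.7, 3.90 and 10.8). Of 10 eosinophil genes 8 were higher and 1 lower. Prg2 and Epx, which encode eosinophil granule proteins, had dendritic means of 4431 and 1139. The lower gene was the chemokine receptor Ccr3, with means of 48.0 in dendritic cells and 126 in macrophages. The receptor chain Il5ra had low means, 6.89 against 1.21. Among the mast cell and basophil genes, whose sums are given above beside Kit, Cpa3, a granule protease, had 403, 386, 257 and 348 dendritic reads and the receptor chain Fcer1a was near 0 (1.02, 2.04, 5.10 and 3.08). Besides the Ear genes, these lists share Cxcr2 and Ccr3 with the chemokine receptors, Il5ra and Kit with the growth factor receptors, Il1rl1 with the interleukins, Siglecf with the Siglec family, Mmp8 with the matrix proteases and Lcn2 with the iron genes. What these cells contributed to any result was not tested.

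Defining markers of T cells, erythroid and plasmacytoid cells were at or near 0, while other genes of those lists were not. Of 9 tested plasmacytoid genes 4 were higher and 3 lower. Summed reads of the 7 recovered ones ran from 223 to 727 in dendritic and from 14.7 to 33.1 in macrophage libraries. Pacsin1 led them with 292, 318, 146 and 492 dendritic reads, whereas Siglech, the defining surface marker, had 0, 1.02, 1.02 and 0. Over all 11 genes of the list, abundant ones included, the direction was the reverse: the authors' means summed to 4993 in dendritic cells and 7544 in macrophages. Of 10 tested B cell genes 2 were higher and 3 lower, with sums of 1359.9 to 1721 against 627 to 1996. Of 10 T and NK cell genes 5 were higher, with sums of at most 132 and 50.8, and Cd3e had 0, 0, 0 and 1.03 reads in the dendritic libraries and 0 in macrophages. The 14 recovered erythroid and platelet genes summed to 286 to 841 against 52.1 to 88.2. Most of these dendritic reads came from Ppbp, a platelet and myeloid chemokine, and Hba-a2 and Hbb-bs were listed at 0. Over all 15 genes of that list the authors' means summed to 3387 in dendritic cells and 3393 in macrophages, so the whole list did not differ. Pf4, a platelet chemokine that was not recovered, had means of 2830 against 3326 and was not called.

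Stromal and endothelial genes gave sums of 565 to 3055 against 192 to 382. Most of the dendritic reads came from Lepr, the leptin receptor, with 173, 797, 1846 and 741, and from Pecam1, whereas the collagen gene Col1a2 had 0, 38.7, 0 and 13.3 in dendritic and 0.959, 7.79, 0.974 and 10.8 in macrophage libraries. Of 16 osteoclast genes 7 were higher and 2 lower. The fusion genes Dcstamp and Ocstamp were 51.8-fold and 179.8-fold higher in the dendritic cultures, or 110.5-fold and 295-fold without macrophage library c, and Acp5, the osteoclast acid phosphatase, 20.7-fold, while Calcr, the calcitonin receptor of mature osteoclasts, had 2.03, 2.04, 0 and 0 against 0, 0.974, 0 and 0 and Tnfrsf11a (RANK) was 4.62-fold lower.

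The remaining lists were smaller. Scavenger receptors were lower in 7 of 17 tested cases and higher in 4, Siglec family genes higher in 6 of 8 and lower in 1, genes of fatty acid synthesis higher in 7 of 14 and lower in 2, and genes of the pentose phosphate pathway higher in 4 of 7 and lower in 0. Each share stands beside the 20.3% and 16.4% of all tested genes.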

How the data were processed

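RNA from 4 dendritic and 4 macrophage cultures was sequenced as polyadenylated, strand-marked libraries, 50 bases from one end, per the labels' protocols. The submitters' processing notes name DESeq2 2.13, Cufflinks 2.1.1, TopHat2, Bowtie2 and bcl2fastq, and build GRCm38; what each did, the annotation and the strand setting: not given in the sources used here. For each gene the authors deposited, per pair of cell types, a signal per cell type (a mean that, judged by its values, averages the whole reads of 4 libraries each divided by a size factor), a log2 fold change, which for low genes lies nearer 0 than the ratio of the means, and a p-value with its adjusted p-value. The mean of each cell type was the same in every comparison that held it, so its scaling did not change with the pair compared. Whether osteoclast libraries entered the fit behind the p-values is not given. No counts per library were used as deposited values, so the edgeR test planned for such counts did not apply and the authors' test is the main test.

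From these values the ratio of means was computed (exon lengths from GENCODE on GRCm38), with standard errors implied by the authors' p-value taken as a two-sided Wald test. Gene symbols were matched for 45138 of 46072 Ensembl identifiers, and 934 were not matched. Means are sums of 4 whole reads, each with its own step, so reads per library were solved for means up to 1000; 18271 of 18272 dendritic and 17969 of 17969 macrophage genes had 1 solution. In a simulation 954 of 956 dendritic genes were recovered, 0 of them wrongly. Recovered size factors ran from 0.975 to 0.983 in dendritic and from 1.02 to 1.04 in macrophage libraries. limma 3.58.1 (trend, Benjamini-Hochberg adjustment) on log2(reads + 1) was an alternative. On simulated data of 8237 genes it called 68 of 100 genes changed 2-fold and 100 of 100 changed 4-fold, with 7 of 8037 unchanged genes. The simulation gave every gene the same spread between libraries and left out genes with few reads. Its rates therefore need not hold for the real libraries. Python 3.11.15, pandas 2.3.3, scipy 1.17.1 and R 4.3.3 were used. Intervals at 95% are exact (Clopper-Pearson) and cover counting error only. The labels name no molecular identifiers.

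The 49 gene lists (941 genes) and the members were chosen with earlier results of these data known. Named genes are the 5 markers, the 15 largest ratios each way among called genes with at least 10 CPM (symbols of predicted Gm and Rik genes, ribosomal proteins and mitochondrial genes left out), and list members, the largest ratios and the most abundant first. The 4 libraries of a cell type are cultures from separate marrow extractions. Whether the authors' p-values took account of the mouse shared between cell types, or of the spread among osteoclast libraries, is not given. Alternatives were other thresholds, filters, scalings, the limma fit and libraries left out.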

Additional observations from a re-analysis of the deposited data

Results flagged for a closer look

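Of 186 groups of 4 recovered libraries of named genes whose highest library held at least 10 reads, 10 had a library standing apart from the other 3 by Dixon's ratio, and chance flags about 1 in 20 groups. In 5 of them it was macrophage library a, with the highest value of its group. That library held 69.0 reads of Ccl17, 851 of Cd86, 524 of Il1b, 1644 of Thbs1 and 362 of Bmp2. Macrophage library c stood highest for Rarb with 21.4 reads and for Ocstamp with 31.2. Dendritic library c stood highest for Il6 with 162 reads, dendritic library d for Hpgd with 21.5, and dendritic library a lowest for Rfx5 with 416. For Ccl17 and Rfx5 the gap is small beside the difference or level reported. No library was left out of the reported results on this account.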

How the results depend on the processing

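Requiring at least 2-fold lowered the called genes to 2669 higher and 1554 lower. With an adjusted p under 0.01 they were 3436 and 2688, with adjustment over every gene with a p-value 4092 and 3277, and among genes with at least 1 CPM 3479 and 3233, each within 1.5 times the reported counts. Among the genes recovered in both cell types the authors called 2610 higher and 1871 lower, and limma 2259 and 1512, of which 3635 calls were shared in one direction with the authors' 4481. Leaving out one library at a time gave 1937 to 2203 genes higher and 1230 to 1412 lower, the lowest count of lower genes, 1230, being that without dendritic library d. No paired analysis was possible because the deposited means and the libraries recovered from them carry no replicate number. Of 258 named genes with a test, none reversed under the alternatives run. The limma fits, with all libraries or without 1 of them, covered only 74 of these genes. The other alternatives rescaled or readjusted the authors' own values, with log2 shifts of at most 0.148, and could hardly reverse a call. With either scaling Tlr4 lost its call. Pros1 gained one with both scalings, and Cebpa with the summed means made equal. Leaving out any one recovered library turned the direction of no named gene's ratio of means that was called, an alternative chosen after seeing the data. Of the gene lists, called members fell by over 1.5 times in many when 2-fold was required, since many differences were smaller. Reads per library were not recovered for genes with means above 1000, so for those the spread between libraries is known only through the authors' p-value.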
